A study of Mus musculus with 4 samples.

Results

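The interferon regulatory factors are a family of transcription factors encoded by Irf genes, and the mRNA levels of 8 of them, chosen by their symbols among the 18021 genes of the deposited table, were read in LPS-matured mouse dendritic cells. All 8 averaged 1 FPKM or more (fragments per kilobase of transcript, scaled to the depth of the library) over the 4 libraries, as did 11041 genes in all. The cells were dendritic cells of the C57BL/6 strain, grown for 5 days with GM-CSF and IL4 and matured for 24 h with LPS at 100 ng/ml, treatments that all groups share. They were transfected with si-NC or with si-Lnc-Dpf3, an siRNA against lnc-Dpf3 by its name, a long non-coding RNA, and either left unstimulated (Med) or stimulated for 12 h with CCL19 and CCL21, which bind CCR7 (CCR7L). Each of the 4 combinations is 1 library from a whole culture, so no group has a replicate, and differences between single libraries carry no p-value. Depletion of lnc-Dpf3 could not be checked, because that RNA was not analysed here.

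Interferon regulatory factors share an N-terminal DNA-binding domain that recognises GAAA repeats in promoters of interferon and interferon-stimulated genes. Some are latent and are activated by kinases downstream of pathogen sensors, others are made in response to interferon, and IRF4 and IRF8 set the identity of dendritic cell subsets together with PU.1 and BATF proteins. Interferon signalling reaches this family through STAT proteins, which bind GAS elements, and through ISGF3, the complex in which IRF9 joins STAT proteins and which binds the interferon-stimulated response element (ISRE).

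Summed FPKM lay between 474610 and 500607 per library, and 10997 to 11075 genes reached 1 FPKM. Depth, estimated from the step that 1 read makes in low FPKM values, was 19400000 to 20400000 reads per library. The 8 members then rest on about 908 to 17182 reads each per library. Intervals called counting intervals below are 95% intervals from these estimated reads and cover counting error only. They say nothing of the spread between cultures. Markers that define dendritic cells were present, with the MHC class II chaperone gene Cd74 at 1516 to 2499.9 FPKM, the integrin gene Itgax at 24.7 to 33.3 and the transcription factor gene Zbtb46 at 10.4 to 13.9. Markers of other cells were present too, among them the monocyte gene Ly6c2 at 2178 to 2401 FPKM and the basophil protease gene Mcpt8 at 184 to 209.5 FPKM.

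Promoter windows from RefSeq (GRCm38.p6), running from 250 bases before to 50 after an annotated start, were on hand for all 8 members, with 11 windows. They were searched on both strands for the ISRE core, spelled as GAAA, any 2 bases and GAAA again, for the GAS element TTCNNNGAA, which reads the same on both strands, and for an ETS core next to an IRF half-site, spelled as GGAA, any 2 bases and GAAA. The ISRE core and the ETS with IRF motif can overlap each other. Among all 32851 windows of the same length, 3.44% held the ISRE core, 8.3% GAS and 2.72% the ETS with IRF motif. Matches lay in 3 of the members' windows, those of Irf8, Irf1 and Irf2, which are shown because the largest siRNA difference among the members was that of Irf8 and because Irf1 and Irf2 differed with CCR7L in opposite directions. Matched letters are in capitals.
Irf8, chr8:120736108-120736407, plus strand, GRCm38.p6: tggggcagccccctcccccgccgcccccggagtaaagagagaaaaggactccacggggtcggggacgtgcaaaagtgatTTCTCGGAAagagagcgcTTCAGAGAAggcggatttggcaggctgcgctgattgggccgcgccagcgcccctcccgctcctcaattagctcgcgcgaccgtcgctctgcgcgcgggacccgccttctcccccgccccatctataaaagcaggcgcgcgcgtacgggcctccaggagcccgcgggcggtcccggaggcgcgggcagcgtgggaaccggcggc
Irf1, chr11:53769764-53770063, plus strand, GRCm38.p6: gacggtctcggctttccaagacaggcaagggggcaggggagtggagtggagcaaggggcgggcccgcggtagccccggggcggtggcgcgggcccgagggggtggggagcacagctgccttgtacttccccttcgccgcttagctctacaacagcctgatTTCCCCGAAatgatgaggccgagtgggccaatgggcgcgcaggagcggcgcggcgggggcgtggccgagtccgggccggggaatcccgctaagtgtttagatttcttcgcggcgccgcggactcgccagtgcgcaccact
Irf2, chr8:46739495-46739794, plus strand, GRCm38.p6: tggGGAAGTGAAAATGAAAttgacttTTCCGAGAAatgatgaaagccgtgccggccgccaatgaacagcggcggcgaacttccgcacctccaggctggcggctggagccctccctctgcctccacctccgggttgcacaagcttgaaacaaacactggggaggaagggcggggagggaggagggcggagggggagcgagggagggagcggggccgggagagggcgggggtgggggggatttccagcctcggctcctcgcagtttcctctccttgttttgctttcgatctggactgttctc
The Irf8 window held 2 GAS matches, TTCTCGGAA at -171 to -163 and TTCAGAGAA at -153 to -145, counted from the annotated start as 0. Irf1 held 1, TTCCCCGAA at -90 to -82. In Irf2 the GAS match TTCCGAGAA at -224 to -216 stood downstream of GGAAGTGAAA at -247 to -238 and GAAAATGAAA at -241 to -232, which overlap. A match describes letters in the window and not a bound site. No match to these letters was found in the windows of Irf3, Irf4, Irf5, Irf7 and Irf9, or in the second window of Irf1 and of Irf8. The only Irf5 window, chr6:29526375-29526674, lies inside the annotated gene, so bases before the gene's start at 29526130 were not searched.

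Irf7 was the most abundant member in all 4 libraries and Irf3 the least. Mean levels were 419 FPKM for Irf7, 192 for Irf8, 189 for Irf5, 127 for Irf1, 60.2 for Irf9, 38.7 for Irf2, 31.2 for Irf4 and 23.7 for Irf3. Ranked by mean among 18021 genes, Irf7 stood at 170, Irf8 at 407, Irf5 at 415 and Irf3 at 3564. Neighbours in this order kept it in all 4 libraries except Irf8 and Irf5, whose ranges overlapped. Ranges of Irf2 and Irf4 were close, with the lowest Irf2 value at 35.0 FPKM and the highest Irf4 value at 34.6.

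**Figure D1:**
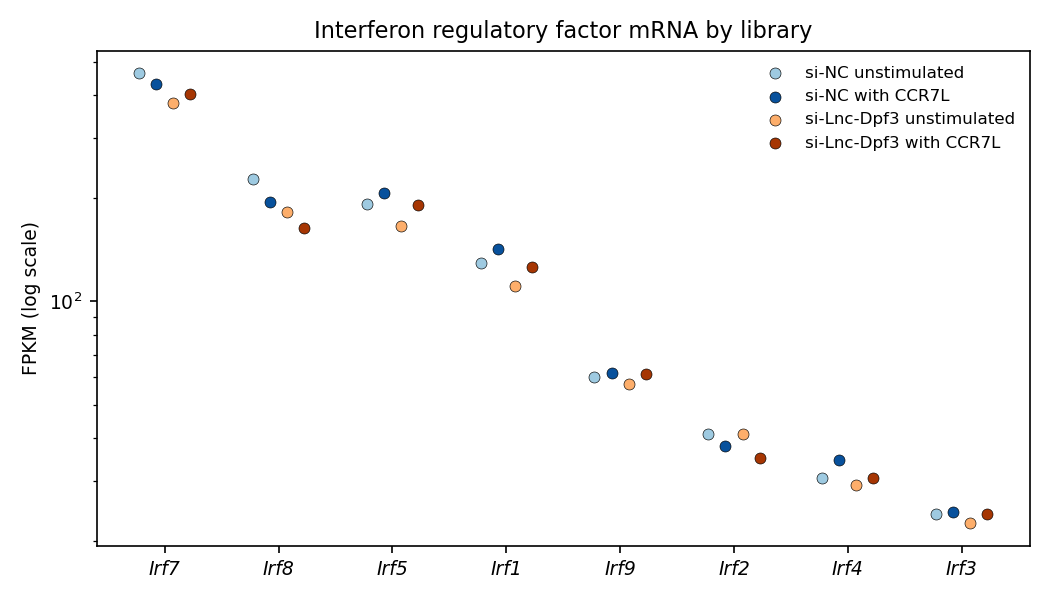
FPKM of the 8 Irf genes on a log scale, 1 point per library, ordered by mean. Irf7 lies between 379.5 and 462 FPKM, Irf8 and Irf5 overlap, and Irf3 is lowest at 22.6 to 24.4 FPKM.

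Taken as a sum, the 8 Irf genes held 0.237% of summed FPKM in si-NC unstimulated cells, 0.229% in si-NC cells with CCR7L, 0.208% in si-Lnc-Dpf3 unstimulated cells and 0.207% in si-Lnc-Dpf3 cells with CCR7L. Irf7 alone made up 38.0% to 39.6% of that sum. The share of Irf8 was 19.5% and 17.2% in si-NC cells without and with CCR7L and 18.4% and 15.8% in si-Lnc-Dpf3 cells. Irf5 went the other way, from 16.5% to 18.2% and from 16.8% to 18.5%.

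Irf8 on chromosome 8 (120736358 to 120756694, GRCm38.p6) encodes a factor required for type 1 conventional dendritic cells and active in plasmacytoid cells and monocytes. It measured 227 FPKM in si-NC unstimulated cells, 195 in si-NC cells with CCR7L, 182 in si-Lnc-Dpf3 unstimulated cells and 163 in si-Lnc-Dpf3 cells with CCR7L. Both si-Lnc-Dpf3 libraries lay below both si-NC libraries. With si-Lnc-Dpf3 the FPKM ratio was 0.802 in unstimulated cells (counting interval 0.78 to 0.824) and 0.838 under CCR7L (0.814 to 0.863). Averaged over both stimulations Irf8 fell with si-Lnc-Dpf3, by 0.28 ± 0.07 on the log2 scale (± SE, adjusted p = 0.04 in limma), a larger drop than in all but 2.96% of genes tested. This p sets the effect against the interaction of the 2 factors and a spread borrowed across genes, not against replicate cultures. The call was lost without limma's mean-variance trend (adjusted p = 0.12), with the siRNA as the only factor (adjusted p = 0.42) and with no filter on low genes (adjusted p = 0.46), and in the single-factor fit with any 1 library left out. Its value in those 4 fits was -0.18 and -0.39 when the unstimulated or the stimulated si-NC library was left out. It was -0.36 and -0.21 when the unstimulated or the stimulated si-Lnc-Dpf3 library was. Those fits are unbalanced for stimulation, so part of the CCR7L difference of Irf8 enters each value. Compared within one stimulation, the log2 ratios were -0.317 in unstimulated cells and -0.253 under CCR7L. In bulk RNA, fewer cells of a type and less RNA per cell cannot be told apart.

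With CCR7L, Irf8 had FPKM ratios of 0.859 in si-NC cells and 0.897 in si-Lnc-Dpf3 cells, both beyond counting error. The average CCR7L effect of -0.19 ± 0.07 did not pass (limma adjusted p = 0.17). It did pass when libraries were scaled to equal summed FPKM, at -0.23 (limma adjusted p = 0.0051). Markers of dendritic cell subsets in which IRF8 acts were mixed. Of 10 type 1 markers 5 averaged 1 FPKM or more, and the 10 summed to 408 to 546 FPKM per library, most of it from the transcription factor genes Id2, at 290.1 to 415 FPKM, and Batf3, at 67.1 to 87.2. The chemokine receptor gene Xcr1 lay at 0.37 to 0.47 FPKM and the lectin gene Clec9a at 0.09 to 0.26. Of 10 plasmacytoid markers 6 averaged 1 FPKM or more, and the 10 summed to 558 to 658 FPKM, most of it from the interferon-induced gene Bst2 at 526 to 624, while the lectin gene Siglech lay at 0.29 to 0.63.

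Irf4 on chromosome 13 (30749233 to 30766981) encodes the factor linked to type 2 conventional dendritic cells and to the IL4 response. Irf4 measured 30.6 FPKM without and 34.6 with CCR7L in si-NC cells, and 29.2 and 30.5 in si-Lnc-Dpf3 cells. The si-NC library with CCR7L was the highest, and the other 3 lay within 29.2 to 30.6 FPKM. Its average effects were 0.12 ± 0.07 for CCR7L (limma adjusted p = 0.46) and -0.12 ± 0.07 for si-Lnc-Dpf3 (limma adjusted p = 0.39), and neither passed. Of 10 type 2 markers 9 averaged 1 FPKM or more, and the 10 summed to 4152 to 7194 FPKM per library. Most of that sum came from the chemokine genes Ccl22, at 3040 to 5145 FPKM, and Ccl17, at 808 to 1727. Cd209a was listed at 0 to 0.07 FPKM and the lectin gene Mgl2 at 48.3 to 53.9 FPKM.

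Irf3, Irf7 and Irf5 encode the factors that sensor pathways activate. Irf7 on chromosome 7 (141263183 to 141266499), the interferon-induced amplifier of type I interferon genes, stood at 462 FPKM in si-NC unstimulated cells, 429 in si-NC cells with CCR7L, 379.5 in si-Lnc-Dpf3 unstimulated cells and 403 in si-Lnc-Dpf3 cells with CCR7L. Both si-Lnc-Dpf3 values lay below both si-NC values. The ratio of si-Lnc-Dpf3 to si-NC was 0.821 in unstimulated cells and 0.938 under CCR7L, both beyond counting error. Its average effect of -0.19 ± 0.08 did not pass (limma adjusted p = 0.27). CCR7L ratios of Irf7 took opposite signs, at 0.929 in si-NC cells and 1.06 in si-Lnc-Dpf3 cells, and the difference was not tested because the additive model has no residual left for it.

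Irf5 on chromosome 6 (29526130 to 29541869), which acts with MyD88 on inflammatory cytokine genes, measured 192 and 206 FPKM without and with CCR7L in si-NC cells, where si-Lnc-Dpf3 cells had 166 and 191. The stimulated library was the higher of each pair. Ratios for CCR7L were 1.07 in si-NC cells and 1.15 in si-Lnc-Dpf3 cells, and the average of 0.15 ± 0.07 did not pass (limma adjusted p = 0.29). With si-Lnc-Dpf3 the average was -0.16 ± 0.07 (limma adjusted p = 0.25). The nearest values of the siRNA groups, 191 and 192 FPKM, differed by less than counting error. Irf3 on chromosome 7 (44997648 to 45002848), a latent factor activated by TBK1, was the least abundant member. Its 4 values lay between 22.6 and 24.4 FPKM, and the highest was 1.08 times the lowest. None of its 4 ratios was beyond counting error.

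Irf1, Irf2 and Irf9 carry interferon signals. Irf1 on chromosome 11 (53770014 to 53778374), an interferon-gamma-induced activator of antigen processing genes, measured 129 and 142 FPKM without and with CCR7L in si-NC cells, where si-Lnc-Dpf3 cells had 111 and 126. CCR7L libraries were the higher of each pair and si-Lnc-Dpf3 libraries the lower. The ratio for CCR7L was 1.1 (counting interval 1.06 to 1.14) in si-NC cells and 1.13 (1.09 to 1.18) in si-Lnc-Dpf3 cells. The average CCR7L effect of 0.16 ± 0.06 and the average si-Lnc-Dpf3 effect of -0.20 ± 0.06 did not pass (limma adjusted p = 0.23 and adjusted p = 0.12). With median-ratio scaling the siRNA effect of Irf1 did pass, at -0.22 (limma adjusted p = 0.048).

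Irf2 on chromosome 8 (46739745 to 46847458) binds the same sites as IRF1 and often opposes it. Its level went from 40.9 FPKM without to 37.8 with CCR7L in si-NC cells, and from 41.0 to 35.0 in si-Lnc-Dpf3 cells. Both CCR7L libraries lay below both unstimulated libraries, opposite in direction to Irf1. Its average CCR7L effect of -0.17 ± 0.06 did not pass (limma adjusted p = 0.22). Irf9 on chromosome 14 (55603985 to 55610030), the DNA-binding part of ISGF3, stayed within 57.5 to 61.8 FPKM. Its average effects were 0.07 ± 0.06 for CCR7L and -0.03 ± 0.06 for si-Lnc-Dpf3 (limma adjusted p = 0.67 and adjusted p = 0.83).

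**Figure D2:**
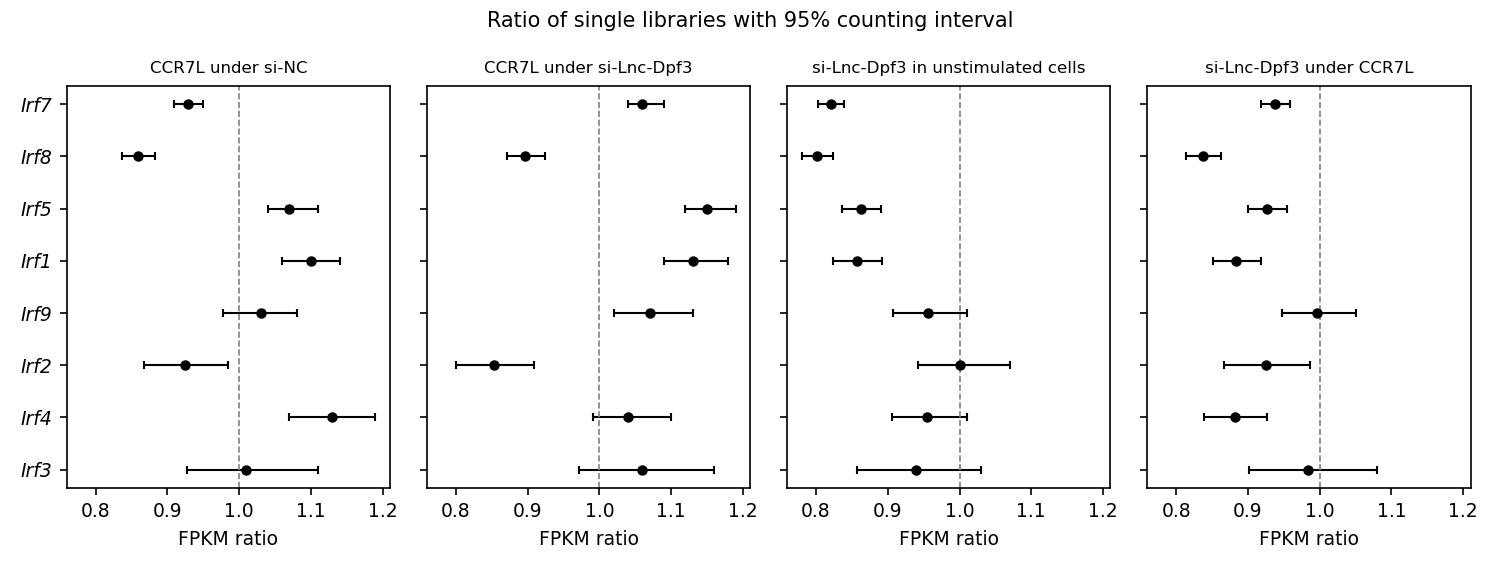
FPKM ratio of 2 single libraries for the 8 members (x axis, linear) in 4 comparisons, with 95% counting intervals from estimated reads as bars. Irf8 lies to the left of 1 in all 4 panels, and Irf1 and Irf5 lie to the right of 1 in both CCR7L panels and to the left in both si-Lnc-Dpf3 panels.

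Read as a group, 0 of 8 members passed the limma test for CCR7L, where 6.04% of 11041 genes passed in either direction, and 4 members had an unadjusted p under 0.05, as did 16% of all genes. For si-Lnc-Dpf3 1 of 8 fell, Irf8, and 0 rose, where 2.04% of genes fell and 2.33% rose. At an unadjusted p under 0.05 there were 4 members, against 17.5% of all genes. No member reached a 2-fold difference in any of the 4 single comparisons on log2(FPKM + 1). That size was reached by 0.453% of genes when CCR7L was added to si-NC cells and 0.48% when it was added to si-Lnc-Dpf3 cells. Between the siRNAs it was reached by 0.0906% of genes without CCR7L and 0.0725% with it. The median average effect of the members was -0.14 for si-Lnc-Dpf3 and 0.06 for CCR7L, beside 0.01 and -0.02 over all genes tested.

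In both siRNA comparisons 7 of 8 members were lower with si-Lnc-Dpf3, the exception being Irf2, where 27% of all genes were lower in both. These counts go by direction alone. Both ratios were beyond counting error for Irf1, Irf5, Irf7 and Irf8. Both were within it for Irf3 and Irf9, as was that of Irf4 in unstimulated cells. Libraries of the siRNA groups did not overlap for 6 members, Irf1, Irf3, Irf4, Irf5, Irf7 and Irf8, all of them lower, where 15.7% of genes did so. For Irf1, Irf3, Irf4 and Irf5 the gap between the nearest libraries was within counting error, and for Irf7 and Irf8 it was not, with ratios of 0.938 and 0.934. With CCR7L, 5 of 8 were higher under both siRNAs and 2 lower, where 25.1% and 34.2% of genes were. Of the higher ones, only Irf1 and Irf5 were beyond counting error under both siRNAs. Irf3 was within it under both, Irf9 in si-NC cells and Irf4 in si-Lnc-Dpf3 cells. The lower ones, Irf2 and Irf8, were beyond it under both. Non-overlapping stimulation groups were found for Irf9, higher (16.2% of genes), and for Irf2, lower (21.5% of genes). The gap of Irf9, a ratio of 1.02, was within counting error (0.973 to 1.08), and that of Irf2, a ratio of 0.924, was not (0.867 to 0.984).

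**Figure D3:**
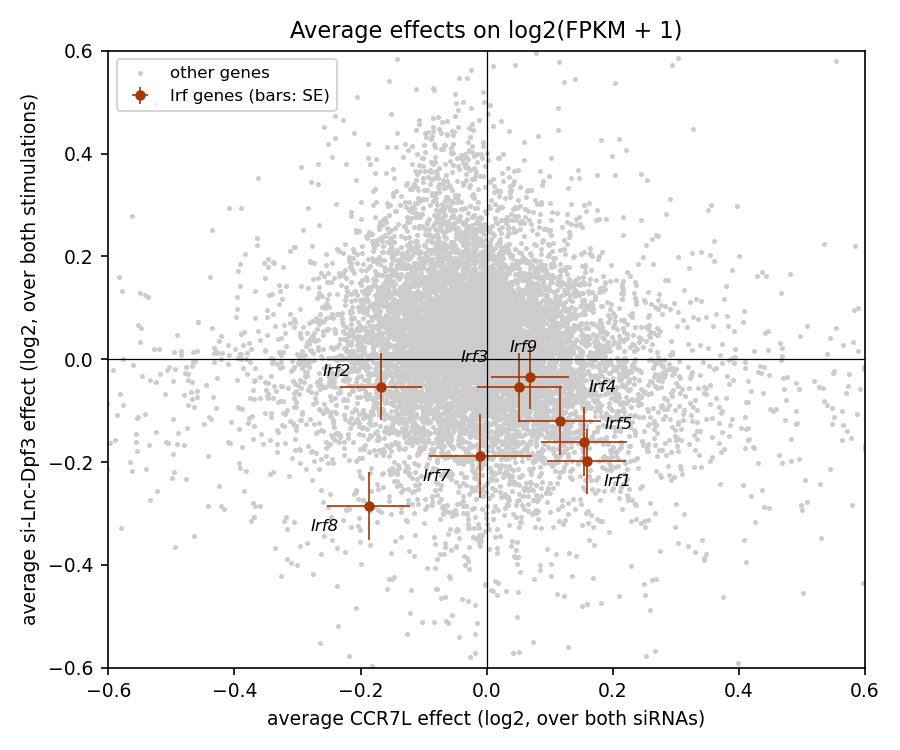
Average CCR7L effect (x axis) and average si-Lnc-Dpf3 effect (y axis) on log2(FPKM + 1), with all tested genes in grey, the 8 members in brown and bars for limma's SE; both axes run from -0.6 to 0.6 and leave out 246 genes. All 8 members lie below 0 on the y axis, and Irf8 is the lowest at -0.28.

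Ratios between members within a library do not depend on how libraries are scaled to each other. Irf8 over Irf5 was 1.18 and 1.1 in unstimulated si-NC and si-Lnc-Dpf3 cells and 0.945 and 0.855 with CCR7L. Irf8 was thus the more abundant without CCR7L and Irf5 with it, under both siRNAs. Irf1 over Irf2 was 3.16 without and 3.76 with CCR7L in si-NC cells, and 2.7 and 3.59 in si-Lnc-Dpf3 cells. Irf8 over Irf4 was 7.43 and 5.64 in si-NC cells and 6.24 and 5.36 in si-Lnc-Dpf3 cells, so that both stimulated libraries lay below both unstimulated ones. Irf7 over Irf3 varied less, from 16.8 to 19.2. These ratios have 1 library per group, were chosen after the values were seen and carry no test.

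**Figure D4:**
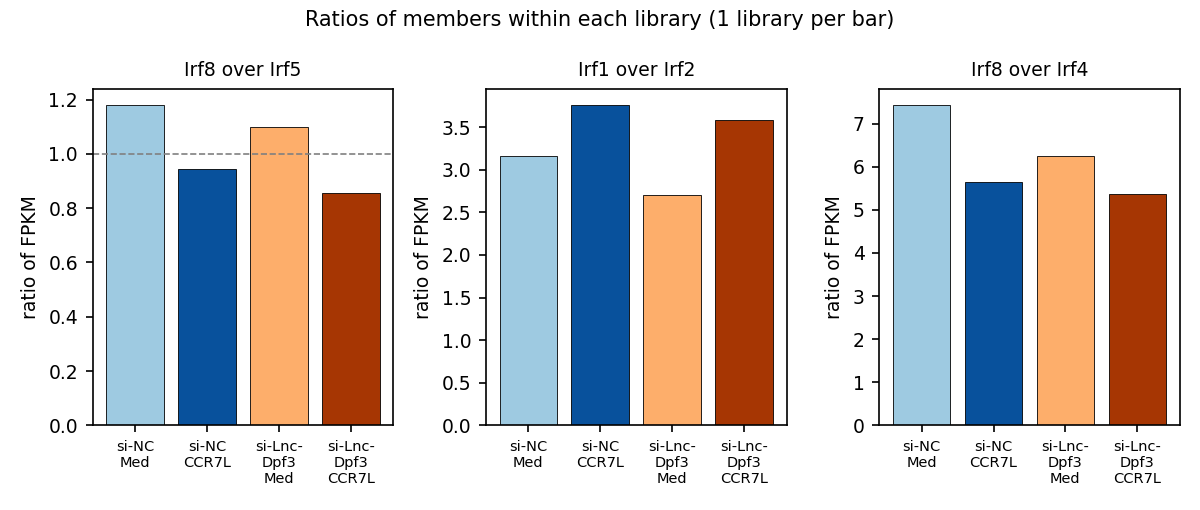
Ratio of FPKM between 2 members within each library, 1 library per bar, with the y axis from 0. Irf8 over Irf5 is above 1 in unstimulated cells and below 1 with CCR7L, and Irf1 over Irf2 is higher with CCR7L under both siRNAs.

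Genes around the family were counted in 6 lists that hold 93 different genes above 1 FPKM. With si-Lnc-Dpf3 19 of the 93 fell and 0 rose, where 2.04% of all genes fell and 2.33% rose. With CCR7L 1 fell and 4 rose, where 6.04% of all genes passed in either direction. The ISGF3 targets, genes that IRF9 serves, had 8 of 23 fall and 0 rise with si-Lnc-Dpf3, and 0 change with CCR7L. Rsad2, which encodes the antiviral enzyme viperin, stood at 281 FPKM (Med) and 274 (CCR7L) in si-NC cells but at 194 and 187 in si-Lnc-Dpf3 cells, an average change of -0.54 ± 0.07 in log2 (limma adjusted p = 0.003). Ifit3, which encodes an antiviral RNA-binding family member, changed by -0.44 ± 0.06 (limma adjusted p = 0.0059) and Ifit2, of the same family, by -0.33 ± 0.07 (limma adjusted p = 0.022). Irf9 itself, at -0.03, did not pass.

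Of 20 IRF1-linked genes 9 fell and 0 rose with si-Lnc-Dpf3, where 2.04% of all genes fell and 2.33% rose. With CCR7L 3 rose and 0 fell, where 6.04% of all genes passed in either direction. Nos2, the inducible nitric oxide synthase gene, changed with si-Lnc-Dpf3 by -0.62 ± 0.07 (limma adjusted p = 0.0015), the IL-12 subunit gene Il12a by -0.58 ± 0.08 (limma adjusted p = 0.004) and the chemokine gene Cxcl10 by -0.53 ± 0.07 (limma adjusted p = 0.0034). With CCR7L, Ciita, the transactivator of MHC class II genes, rose by 1.08 ± 0.08 (limma adjusted p = 1.1e-05). The immunoproteasome genes Psmb9 and Psmb8 rose by 0.34 ± 0.08 and 0.33 ± 0.08 (limma adjusted p = 0.025 and adjusted p = 0.036). Medians of the 2 lists for si-Lnc-Dpf3 were -0.17 for ISGF3 targets and -0.23 for IRF1-linked genes, beside 0.01 over all genes. Without the mean-variance trend 1 ISGF3 target and 3 IRF1-linked genes fell, where 34 of 11041 genes did. With the siRNA as the only factor 0 of either list fell, where 1 of 11041 genes did.

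Among 25 sensors, adaptors and kinases 1 fell with si-Lnc-Dpf3, the double-stranded RNA receptor gene Tlr3, at -0.43 ± 0.10 in log2 (limma adjusted p = 0.033). With CCR7L 1 rose, the DNA receptor gene Tlr9, from 10.9 FPKM to 14.4 in si-NC cells and from 10.2 to 14.4 in si-Lnc-Dpf3 cells (average 0.42 ± 0.08, limma adjusted p = 0.0091). Of 14 interferon receptor, JAK and STAT genes 1 fell with CCR7L, Stat3, at -0.29 ± 0.06 (limma adjusted p = 0.016), and 0 of the 14 passed for si-Lnc-Dpf3. Of 19 partners and cofactors 1 fell with si-Lnc-Dpf3, Batf2, at -0.38 ± 0.09 (limma adjusted p = 0.036), and 0 passed for CCR7L. Over all genes 2.04% fell and 2.33% rose with si-Lnc-Dpf3, and 6.04% passed for CCR7L in either direction. Without the mean-variance trend these lists had 0 of those falls left, and 1 sensor still rose with CCR7L. With a single factor that rise was lost too. Spi1, which encodes the IRF4 and IRF8 partner PU.1, stood at 226 FPKM (Med) and 249 (CCR7L) in si-NC cells and at 239 and 273 in si-Lnc-Dpf3 cells, the opposite direction to Irf8. Its average si-Lnc-Dpf3 effect of 0.10 ± 0.07 did not pass (limma adjusted p = 0.49).

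Interferon mRNA was low in all libraries. Of 10 interferon genes measured, 2 were listed at 0 in every library, and 1, Ifng, had a mean above 1 FPKM. Ifnb1, the interferon-beta gene, stood at 0.91 FPKM (Med) and 1.11 (CCR7L) in si-NC cells and at 0.53 and 0.65 in si-Lnc-Dpf3 cells. Ifng stood at 1.39 and 1.22 in si-NC cells and 0.78 and 1.01 in si-Lnc-Dpf3 cells, and its average si-Lnc-Dpf3 effect of -0.28 ± 0.12 did not pass (limma adjusted p = 0.23).

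**Figure D5:**
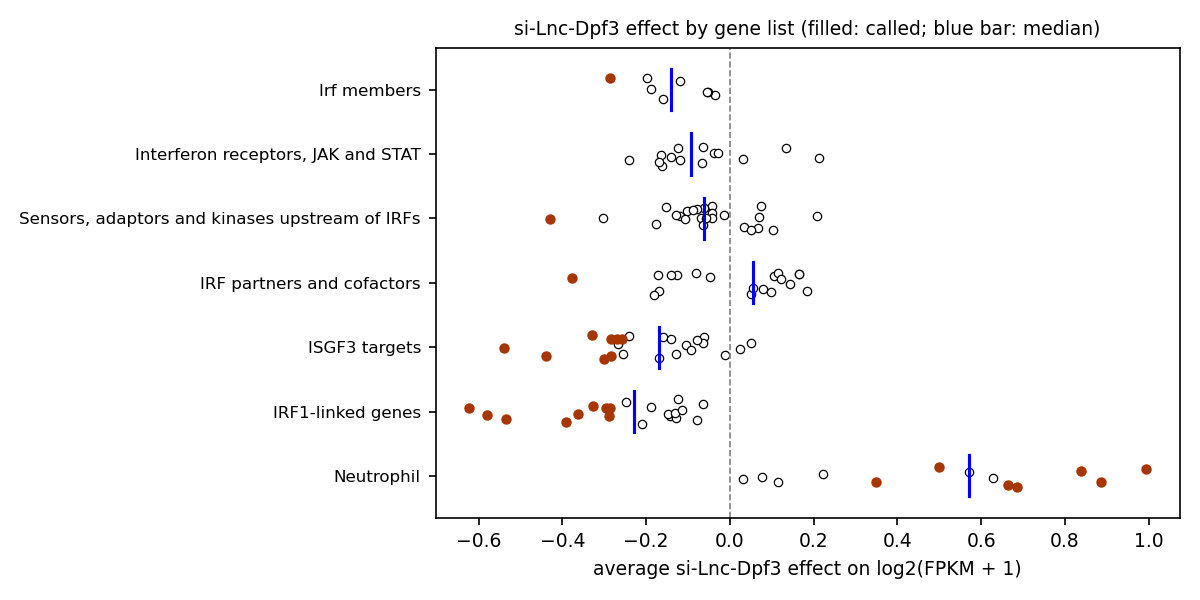
Average si-Lnc-Dpf3 effect on log2(FPKM + 1) for each gene above 1 FPKM of the members, 5 lists around the family and the neutrophil markers; filled points passed limma at an adjusted p under 0.05 and blue bars are medians. Most ISGF3 and IRF1-linked genes lie below 0, and neutrophil markers lie above 0.

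Markers of other cells moved with the siRNA groups. The 14 neutrophil markers together gave 9339 and 9714 FPKM with si-NC against 13760 and 13890 with si-Lnc-Dpf3, or 1.9% to 1.96% against 2.78% to 2.9% of summed FPKM. Of 13 above 1 FPKM 7 rose with si-Lnc-Dpf3 and 0 fell, with Ltf at 0.99 ± 0.06 (limma adjusted p = 6.4e-05). Among 10 genes that define dendritic cells 3 fell and 0 rose with si-Lnc-Dpf3. They were Itgax at -0.35 ± 0.07, Cd83 at -0.27 ± 0.06 and Cd86 at -0.27 ± 0.06 (limma adjusted p = 0.018, adjusted p = 0.038 and adjusted p = 0.036). Zbtb46 did not pass, at 13.9 FPKM (Med) and 10.4 (CCR7L) in si-NC cells and 13.4 and 10.8 in si-Lnc-Dpf3 cells. By direction alone, 10 of the list were lower with si-Lnc-Dpf3 in unstimulated cells and 8 under CCR7L. Of 12 macrophage and monocyte markers above 1 FPKM 2 fell, Adgre1 and Fcgr1, and of 7 mast cell and basophil markers 2 fell, Hdc and Fcer1a. Type 1 and type 2 dendritic cell markers had 1 of 5 and 1 of 9 fall, and plasmacytoid markers 0 of 6 change. The type 1 marker that fell was Tlr3, also counted among the sensors. Over all genes 2.04% fell and 2.33% rose with si-Lnc-Dpf3. B and plasma cell markers summed to 6.16 to 8.02 FPKM and T and NK cell markers to 5.08 to 5.78 FPKM, and 0 of 2 in each passed for either effect. With CCR7L 6.04% of all genes passed in either direction. Under it 4 dendritic cell genes rose and 3 fell, and 1 marker rose in each of the type 1 and type 2 lists. There 1 macrophage and 1 mast cell marker fell, and 0 neutrophil or plasmacytoid markers passed. The part of these markers in the lower Irf8, and in the lower ISGF3 and IRF1-linked genes, was not tested.

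The genes whose profile over the 4 libraries was most like that of Irf8 were sought among the 6440 genes that averaged 10 FPKM or more. Likeness was the Euclidean distance between log2(FPKM + 1) values centred over the 4 libraries. Serpinb9, a granzyme B inhibitor gene, was nearest at 0.047, followed by the heparan sulfate proteoglycan gene Sdc4 at 0.049 and the cytokine gene Il15 at 0.058. Serpinb9 stood at 200.2 FPKM (Med) and 175 (CCR7L) in si-NC cells and at 167 and 144 in si-Lnc-Dpf3 cells. With 4 libraries and many genes, close profiles are common, and the distance is a description without a test.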

How the data were processed

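Per the labels' protocols, TRIzol-extracted RNA was sequenced on a BGISEQ-500 instrument. The authors deposited FPKM values with 2 decimals for genes numbered by Entrez. Bowtie2, RSEM and GRCm38 stand in the submitters' processing notes, and their versions were not given in the sources used here. Column names were read as siRNA (nc or si) and stimulation (un or tr), which gave each group 1 column. In 26 rows a symbol turned into a date was restored through the Entrez number.

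Values were analysed as log2(FPKM + 1) over the 11041 genes that averaged 1 FPKM or more, a scale that understates changes of low genes. limma 3.58.1 in R 4.3.3 fitted siRNA and stimulation as additive factors, with a mean-variance trend and p-values adjusted by Benjamini-Hochberg over all genes, called at 0.05. The interaction supplies the single residual degree of freedom, so no group is replicated. Culture differences between siRNAs common to both stimulations are part of the siRNA effect. On simulated data the fit recovered the average change put in, but for the smallest change simulated, close in size to that of Irf8, the share of false calls exceeded 0.05. Read counts were not used here. Depth was the value at which low FPKM values of single-transcript genes gave whole reads furthest above chance. At that depth 49.6% to 55.8% lay within 0.1 of a whole number against 20% by chance, too few to recover reads. Some other depths tried scored close to the best, so the depth is approximate. Transcript lengths came from GENCODE M21. Coordinates and promoters came from RefSeq GRCm38.p6.

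All 8 members are named, and some other genes are not reported here. In each list the 3 called genes with the largest effect may be named, or the 2 most abundant if none was called. Subset markers, the markers that check the cell type and Spi1 beside the siRNA effect were named after their values were seen. Members and lists were chosen with earlier results of these data known. Of the 6 lists around the family all but the interferons share genes with another list. Among 25 ISGF3 targets 7 also stand in another list. Alternatives were another pseudocount, filter and scaling, no trend, a single factor and leaving out each library.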

Additional observations from a re-analysis of the deposited data

Results flagged for a closer look

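Irf7 was singled out because its CCR7L ratio took opposite signs in the siRNA groups, with a log2 ratio of -0.11 in si-NC cells and 0.09 in si-Lnc-Dpf3 cells. Irf2 was singled out because its si-Lnc-Dpf3 ratio did so between stimulations, at 0.00 in unstimulated cells, within counting error, and -0.11 under CCR7L. Each sign rests on 1 pair of libraries, and neither difference was tested.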

How the results depend on the processing

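No paired analysis was possible because each group has 1 library. Counts of members called for CCR7L were 0 in every fit run, except 1 (Irf8) with equal summed FPKM. For si-Lnc-Dpf3 the count of 1 became 2 (Irf1 and Irf8) with median-ratio scaling and 0 without a filter, without the trend and with a single factor, and it was 0 to 0 with each library left out in the single-factor fit, since 3 libraries leave the additive fit no residual. Over all genes, those fits called 0 for si-Lnc-Dpf3 without a filter (1939 at an unadjusted p under 0.05), 77 without the trend, 1 with a single factor and 0 with any library left out. Of 272 values of single members under alternatives, 248 kept their direction and side of the threshold or moved within counting error. The direction turned for Irf7 and CCR7L (0.013 with median-ratio scaling, and -0.152 to 0.132 over the fits that leave out a library), for Irf2 and si-Lnc-Dpf3 (-0.165 to 0.059 over those fits) and for Irf9 and si-Lnc-Dpf3 (-0.084 to 0.014). The fits that leave out a library are unbalanced, so part of the other factor's difference enters each of their values. No further cause was tested. Lists under alternatives, and the number of members lower or higher in both comparisons, were recomputed by a choice made after seeing the data. With equal totals 11 ISGF3 targets and 11 IRF1-linked genes fell, where 347 of 11041 genes fell, against 225 in the main fit. No filter gave 0 of either list and 0 of all 18021 genes. With median-ratio scaling 468 of 11040 genes fell with si-Lnc-Dpf3. For CCR7L 551 genes fell with equal totals and 343 in the main fit. Members lower in both siRNA comparisons numbered 7 or 8 under 3 alternatives. Members higher in both CCR7L comparisons numbered 5, or 4 with equal summed FPKM, where Irf4 in si-Lnc-Dpf3 cells turned to -0.015. The median over all genes stayed within 0.1 of 0 under each scaling.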
